A study of Mus musculus with 14 samples.

Results

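Wnt ligands, their Frizzled receptors and the secreted proteins that block or strengthen Wnt signaling were examined for histone H3 lysine 27 trimethylation (H3K27me3) in mouse embryonic stem cells (mESCs). The 41 genes comprised 17 Wnt ligands, 10 Frizzled receptors, 4 secreted Frizzled-related proteins (Sfrp), 4 Dickkopf proteins (Dkk), 4 R-spondins, and Wif1 with Notum. Wnt6, the site of a deletion described below, and Wnt10a were not among the ligands. A peak was assigned to a gene when it lay within 5 kb of the gene body in the RefSeq annotation. All 41 genes had at least 1 peak, of 16309 protein-coding genes with a peak, and together they held 197 of 74458 peaks, or 0.265%. These peaks took between 0.877% and 0.920% of the counts in each library. Of the 197 peaks, 3 were shared by the neighbouring genes Wnt3 and Wnt9b, and 15 also lay near a gene outside the family.

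Cut&Tag directs the transposase Tn5 to an antibody on chromatin, and here the antibody recognized H3K27me3. The 7 libraries came from G4 mESCs, a line from a 129/Sv and C57BL/6 F1 cross, grown with LIF on CD1 feeder cells. Of them, 3 carried a homozygous CRISPR-Cas9 deletion of the Polycomb loop anchor at Hoxa, 2 at Wnt6 and 2 at Hmx1. No column of unedited cells was present, so the pooled libraries of the other deletions served as the comparison for each deletion, and the comparisons share libraries. The edited lines were picked as single clones and the labels do not name them, so that a deletion and its clone cannot be told apart. Nothing states that replicates were separate cultures, and p-values measure the spread between these libraries. IgG libraries were not analysed here.

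Totals over all peaks ranged from 6016500 to 36563541 counts per library. The deletions were visible in the data: signal over the deleted stretches fell to 0.0944% to 0.553% of that in libraries without the deletion, on chromosomes 6 (Hoxa), 1 (Wnt6) and 5 (Hmx1). Pluripotency genes, which are active in mESCs, mostly carried little of the mark. Their median was 7.15 CPM per kb of peak (counts scaled to a common library total, then divided by peak length) over the 8 of 10 genes with a peak. Esrrb (19.2 CPM per kb) and Klf4 (11.8 CPM per kb) lay above the median of all genes with a peak, 10.9 CPM per kb. Fibroblast genes, markers of the feeder layer, had a median of 39.3 CPM per kb over 8 of 10 genes. Chromosome 8 stood apart in the Hoxa deletion libraries, where its genes had a median log2 fold change of -0.50, against 0.038 to 0.125 on the other autosomes and X. Of the 41 genes only Sfrp1 and Dkk4 lie on chromosome 8, and their values are given with and without the chromosome median.

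Wnt proteins are lipid-modified secreted signals that bind Frizzled receptors and steer cell fate, polarity and growth in the embryo. Sfrp proteins and Wif1 bind the ligands, Dkk proteins block the Lrp co-receptors, Notum removes the lipid from the ligand, and R-spondins strengthen the signal by sparing receptors from degradation. Polycomb repressive complex 2 deposits H3K27me3 over CpG-rich promoters of developmental regulators that are silent or poised in embryonic stem cells. More H3K27me3 in a bulk library can mean that more cells carried the mark or that each cell carried more of it, and these cannot be told apart.

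Promoter windows of RefSeq genes (250 bases before to 50 after the start, GRCm38.p6) were available for 30 starts of 27 members. No window was listed for Notum, Sfrp1, Sfrp4, Fzd2, Fzd3, Fzd6, Fzd8, Rspo2, Rspo3, Wnt5a, Wnt7b, Wnt8a, Dkk3 and Dkk4. The first 250 bases of 6 windows are shown in the direction of transcription with every CG dinucleotide in capitals. Sfrp5 is shown because its promoter lay under the peak with the highest level per kb, Fzd7 because its CG-rich promoter lay under the weakest promoter peak, and Wnt8b because no peak covered it. The 3 starts of Wnt5b are shown because only 1 lay under a peak.
Sfrp5 (chr19:42202253-42202502, minus strand): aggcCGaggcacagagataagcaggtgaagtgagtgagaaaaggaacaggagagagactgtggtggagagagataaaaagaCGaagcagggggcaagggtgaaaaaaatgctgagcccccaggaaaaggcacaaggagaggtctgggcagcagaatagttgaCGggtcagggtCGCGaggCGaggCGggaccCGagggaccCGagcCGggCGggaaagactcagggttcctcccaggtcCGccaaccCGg
Fzd7 (chr1:59481897-59482146, plus strand): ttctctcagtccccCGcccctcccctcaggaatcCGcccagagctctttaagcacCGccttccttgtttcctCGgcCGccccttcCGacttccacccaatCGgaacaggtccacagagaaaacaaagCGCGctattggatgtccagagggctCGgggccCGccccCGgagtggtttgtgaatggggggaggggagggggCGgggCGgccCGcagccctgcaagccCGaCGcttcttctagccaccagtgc
Wnt8b (chr19:44493222-44493471, plus strand): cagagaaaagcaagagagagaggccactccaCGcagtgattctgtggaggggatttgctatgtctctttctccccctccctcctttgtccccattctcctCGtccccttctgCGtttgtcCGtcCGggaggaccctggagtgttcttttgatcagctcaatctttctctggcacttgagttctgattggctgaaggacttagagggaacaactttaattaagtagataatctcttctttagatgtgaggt
Wnt5b, first start (chr6:119544348-119544597, minus strand): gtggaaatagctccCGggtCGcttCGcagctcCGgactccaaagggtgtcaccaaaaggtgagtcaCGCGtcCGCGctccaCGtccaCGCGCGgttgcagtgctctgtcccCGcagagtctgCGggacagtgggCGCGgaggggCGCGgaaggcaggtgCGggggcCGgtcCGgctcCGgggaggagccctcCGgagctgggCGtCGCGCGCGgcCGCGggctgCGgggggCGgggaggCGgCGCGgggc
Wnt5b, second start (chr6:119467212-119467461, minus strand): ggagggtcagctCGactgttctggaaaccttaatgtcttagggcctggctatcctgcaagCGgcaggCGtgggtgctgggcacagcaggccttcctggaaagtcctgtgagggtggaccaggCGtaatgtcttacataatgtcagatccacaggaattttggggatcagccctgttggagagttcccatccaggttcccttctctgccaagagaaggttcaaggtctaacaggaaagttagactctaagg
Wnt5b, last start (chr6:119449387-119449636, minus strand): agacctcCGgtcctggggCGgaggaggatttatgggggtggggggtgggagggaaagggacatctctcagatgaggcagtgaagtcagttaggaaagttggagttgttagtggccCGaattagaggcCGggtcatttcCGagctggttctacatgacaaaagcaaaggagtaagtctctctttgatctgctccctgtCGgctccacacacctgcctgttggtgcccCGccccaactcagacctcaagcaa

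The Sfrp5 stretch holds 13 CG dinucleotides and its peak averaged 121 CPM per kb over the 7 libraries. The Fzd7 stretch holds more, 17, and its peak averaged 9.95 CPM per kb, so that CG number and level did not follow each other between these genes. At Wnt5b, the stretch of the first start holds 35 CG dinucleotides and lay under a peak of 59.0 CPM per kb, whereas the second and the last hold 4 and 7, and no peak covered them. The Wnt8b stretch holds 5.

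Over whole windows, 27 of 30 member promoters (90%) lay under a peak, against 55.9% of 21262 protein-coding promoters. Member windows held a median of 26.5 CG dinucleotides against 13. The 3 windows without a peak, those of Wnt8b and the later Wnt5b starts, held 4 to 7. In windows with 20 to 29 CG dinucleotides, 9 of 9 member promoters and 86.7% of all promoters had a peak, and the median level of that peak was 73.7 CPM per kb for members and 12.1 CPM per kb for all. At similar CG content, member promoters thus had a higher level of the mark, which is a description of a family chosen for its function and carries no test. Short motifs were searched on both strands of the windows. The letters CTTTGA, the core bound by Tcf and Lef factors, were in 4 of 30 member windows (14.4% of all), TATAAA in 5 (12.6% of all) and CCAAT in 11 (38.2% of all).

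**Figure D1:**
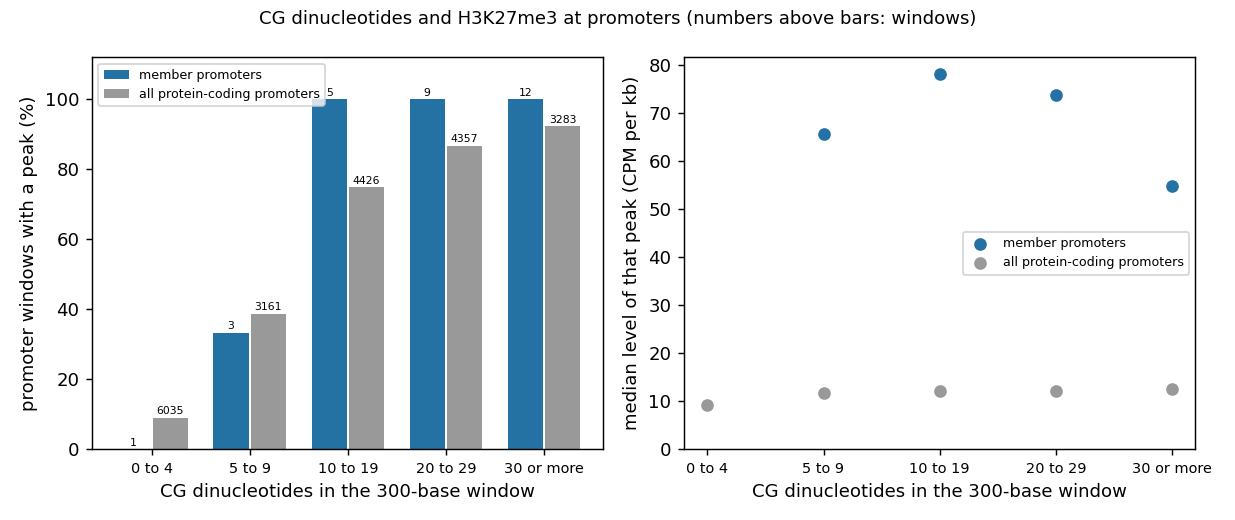
Share of promoter windows with an H3K27me3 peak (left, percent, with the number of windows above each bar) and median level of that peak (right, CPM per kb), by CG dinucleotides per window, for members and for all protein-coding promoters. All member windows with 10 or more CG dinucleotides had a peak, and in every class with a member peak the member median was at least 54.9 CPM per kb, while that of all promoters stayed between 9.2 and 12.5.

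Levels per length of peak were high across the family. The median member had 47.1 CPM per kb as a mean of the 7 libraries, against 10.9 CPM per kb for all genes with a peak. Of the 41 members, 39 lay above the all-gene median and 24 lay in the top 10% of genes. The level was also stable between libraries, since the coefficient of variation over all 7 libraries had a median of 7.43% and only Notum, at 48.8%, stood far above the rest.

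Among Wnt ligands, Wnt2b had the highest level, 75.0 CPM per kb, followed by Wnt10b and Wnt8a. The lowest ligand was Wnt5b, a ligand of the noncanonical branch. Among receptors, Fzd1 (86.4 CPM per kb) and Fzd8 (76.1 CPM per kb) were highest, whereas Fzd5 (13.0 CPM per kb) and Fzd7 (9.95 CPM per kb), a receptor expressed in mESCs, were 2 of the 5 lowest members. All 7 libraries of Fzd7 lay between 7.87 and 12.9 CPM per kb, below every library of every member other than Dkk4 and Fzd5.

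Among secreted antagonists, Sfrp5 had the highest level of any member, 106.5 CPM per kb, with a range of 94.7 to 115.5 over the libraries. Dkk1, a Wnt target that blocks Lrp5 and Lrp6, was highest in its group at 47.5 CPM per kb, and Dkk4 was the lowest member at 4.35 CPM per kb, from a single peak of 233 bp. Rspo2 led the R-spondins at 72.8 CPM per kb. Wif1 reached 32.8 CPM per kb, Dkk3 27.1 CPM per kb and Notum 25.4 CPM per kb.

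Summed per subfamily with each peak counted once, Sfrp genes had 60.05 CPM per kb, Frizzled receptors 53.05, Wnt ligands 46.7, R-spondins 42.8, Dkk genes 36.8, and Wif1 with Notum 29.4. The ranges over 7 libraries overlapped between the neighbouring Sfrp and Frizzled groups (54.5 to 66.9 against 46.4 to 57.4), between Frizzled and Wnt groups, and between Wnt ligands and R-spondins. R-spondins (40.55 to 45.4) and Dkk genes (34.7 to 39.25) did not overlap. Every library measured all groups, so overlapping ranges do not mean that the order changed. Within each library Sfrp genes were highest, followed by Frizzled receptors, Wnt ligands and R-spondins. Subfamilies also differed in layout. A Wnt ligand had a median of 7 peaks (range 2 to 14) and its strongest peak held a median of 58.9% of its CPM. A Frizzled gene had a median of 2 peaks (range 1 to 4) and its strongest peak held 96.6%. More than 90% of the CPM lay in a single peak in 9 of 10 Frizzled genes and in 2 of 17 Wnt ligands, Wnt2 and Wnt16. Gene bodies were shorter for Frizzled genes (median 4.59 kb) than for Wnt ligands (median 22.9 kb), so the searched windows differed too.

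**Figure D2:**
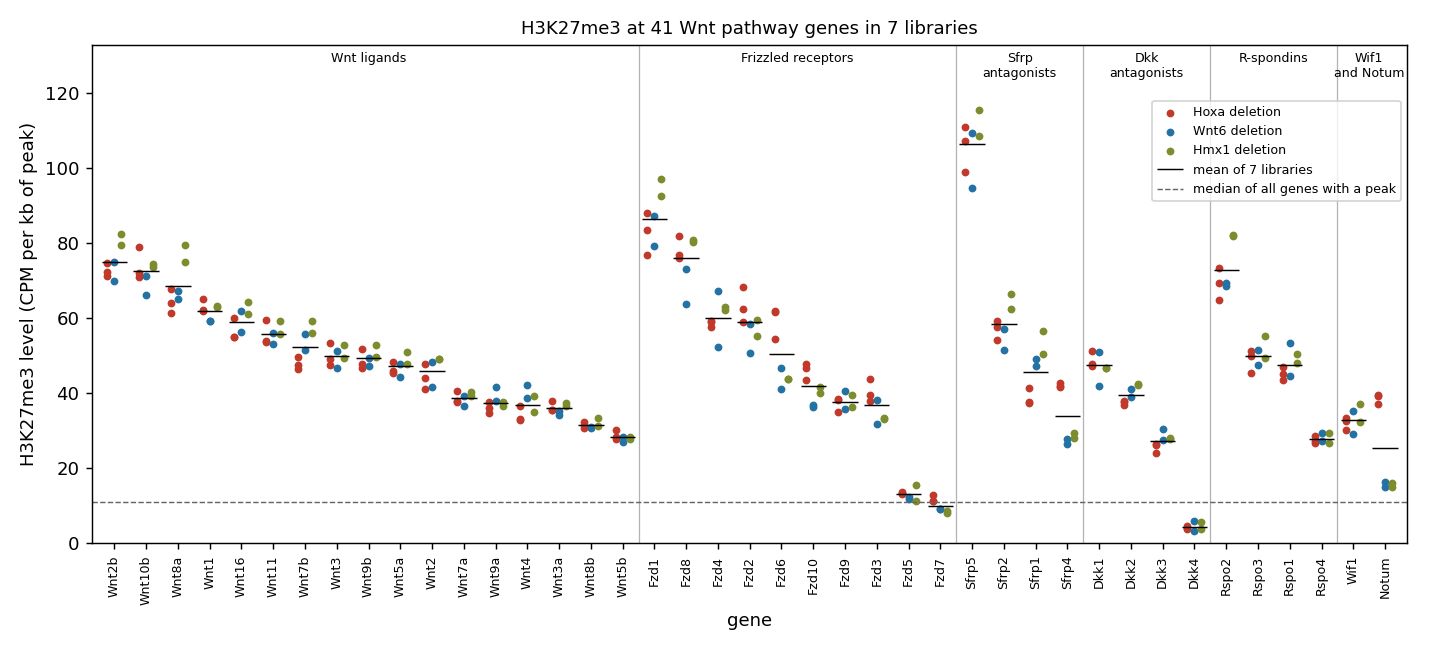
H3K27me3 level of the 41 genes in each of 7 libraries (vertical axis, CPM per kb of peak), ordered within subfamilies by the mean over libraries (black bars), with the median of all genes with a peak as a dashed line. Sfrp5 is highest and Dkk4 lowest, and the libraries of the 3 deletions lie close together for most genes, apart from Notum, Sfrp4 and Fzd6.

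The Hoxa deletion was compared with the other deletions to see whether the mark at Wnt pathway genes differed where the Hoxa anchor was lost. A call needed an adjusted p under 0.05 and an absolute change over 1 on the log2 scale. Notum was the only member that met both, where 0.533% of 16309 genes did (0.3% higher and 0.233% lower). Without a minimum fold, 8 of 41 members passed, 6 higher and 2 lower, against 17.2% of all genes (11.8% higher and 5.43% lower), a share close to the background. In 9 of 41 members the Hoxa deletion libraries did not overlap with the others, against 24.5% of all genes. The median log2 fold change of members was -0.03 and that of all genes 0.06.

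Notum, the carboxylesterase that inactivates Wnt proteins, rose. Its level was 110.1, 110.6 and 103.6 CPM in the 3 Hoxa deletion libraries, 45.9 and 41.6 CPM in the Wnt6 deletion libraries and 41.6 and 44.6 CPM in the Hmx1 deletion libraries. All 3 Hoxa deletion libraries lay far above the other 4, which were close to each other. The log2 fold change was 1.32 (SE 0.08, edgeR adjusted p = 1.15e-18), and it was the same size against the Wnt6 deletion alone (1.32, SE 0.09) and against the Hmx1 deletion alone (1.31, SE 0.09). With the chromosome medians removed it was 1.27. Both peaks of Notum took part. The major peak covers the end of the gene at the higher coordinate (chr11:120658811-120661396) and held 97.3% of the CPM, and it rose by 1.30 (SE 0.09, edgeR adjusted p = 3.45e-16).

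The minor Notum peak lies inside the gene near its other end (chr11:120654202-120654421). It had 2.94, 2.52 and 4.70 CPM in the Hoxa deletion libraries and 0.63 to 1.25 CPM in the others, again without overlap, and rose by 1.91 (SE 0.31, edgeR adjusted p = 2.18e-05). These levels rest on 25 to 73 counts in the Hoxa deletion libraries and 4 to 48 in the others. Peaks on both sides of Notum gave mixed values. The nearest peak on the lower side, 5.79 kb away near Myadml2 and Pycr1, rose by 0.75 (SE 0.14, edgeR adjusted p = 0.000137). The nearest peak on the higher side, 11.5 kb away near Aspscr1, had a log2 fold change of 0.12 (SE 0.20, edgeR adjusted p = 0.804), whereas the next one on that side, 52.1 kb away, rose by 0.59 (SE 0.16, edgeR adjusted p = 0.00976).

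Sfrp4, a secreted antagonist that binds Wnt ligands, rose by 0.60 (SE 0.08, edgeR adjusted p = 4.11e-08). Its levels were 81.5, 81.9 and 83.6 CPM in the Hoxa deletion libraries, 54.4 and 51.8 CPM in the Wnt6 deletion libraries and 57.5 and 54.98 CPM in the Hmx1 deletion libraries. Both of its peaks were higher in all 3 Hoxa deletion libraries, and both also lie within 5 kb of Epdr1. Of the other Sfrp genes, Sfrp2 and Sfrp5 had log2 fold changes of -0.06 and -0.02 and did not pass the test, and Sfrp1 passed in the opposite direction.

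Frizzled receptors gave 4 of the 6 higher members, beside the 11.8% of all genes that passed higher. Fzd6, which acts largely in planar cell polarity, had 97.7, 86.4 and 98.0 CPM in the Hoxa deletion libraries and 65.2 to 73.9 CPM in the others, and rose by 0.44 (SE 0.08, edgeR adjusted p = 1.53e-05). Fzd7 had 21.98, 22.3 and 25.5 CPM against 15.55 to 17.8 CPM, and rose by 0.45 (SE 0.12, edgeR adjusted p = 0.00406). Groups did not overlap for these receptors. Fzd10 rose by 0.26 and Fzd3 by 0.24, with edgeR adjusted p = 0.00539 and 0.0152, and Fzd3 libraries overlapped. Both passes were lost without replicate 1 of the Hoxa deletion (edgeR adjusted p = 0.0597 and 0.179) and with only peaks that touch the gene body (0.0501 and 0.0536). That of Fzd10 was also lost against the Hmx1 deletion alone (edgeR adjusted p = 0.0873), and that of Fzd3 against the Wnt6 deletion alone (0.0761) and without replicate 2 of the Hmx1 deletion (0.0671). Both Fzd3 peaks also lie within 5 kb of Fbxo16. Of the 10 Frizzled genes 7 were higher, with a median log2 fold change of 0.14 (range -0.10 to 0.45). All genes had a median of 0.06, and their share above 0 is not given here. Among the 8 members that passed without a fold minimum, Fzd3, Fzd6, Fzd7 and Fzd10 were named after their values were seen.

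Sfrp1 and Wnt7b fell. Sfrp1, on chromosome 8, had 131.5, 119.4 and 119.3 CPM in the Hoxa deletion libraries and 150.6 to 179.9 CPM in the others, a log2 fold change of -0.39 (SE 0.07, edgeR adjusted p = 4.15e-05). With the chromosome medians removed its value was 0.17 (adjusted p = 0.0673), so the direction turned. Dkk4, also on chromosome 8, had -0.31 (SE 0.38, adjusted p = 0.673), and 0.24 with the medians removed. Wnt7b, a ligand of the nervous system and lung, had 508.4, 477.8 and 487.2 CPM against 527.9 to 608.4 CPM. Its groups did not overlap, and it fell by 0.22 (SE 0.06, edgeR adjusted p = 0.00595). The Wnt7b pass was lost without replicate 2 of the Hmx1 deletion (edgeR adjusted p = 0.0546) and against the Wnt6 deletion alone (edgeR adjusted p = 0.0908).

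The remaining Wnt ligands did not pass in the pooled comparison. Without the fold minimum, Wnt4 passed against the Wnt6 deletion alone (-0.24, edgeR adjusted p = 0.0133). Wnt8a passed against the Hmx1 deletion alone (-0.26, edgeR adjusted p = 0.00665). Ligand values in the pooled comparison were small, since the 17 ligands ranged from -0.22 to 0.05 on the log2 scale, with 13 below 0. All 4 R-spondins had negative values there, from -0.13 to -0.04, and none passed. Against the Hmx1 deletion alone Rspo2 passed without the fold minimum (-0.25, edgeR adjusted p = 0.0109). Dkk1, Dkk2 and Dkk3 had 0.07, -0.13 and -0.15 in the pooled comparison, and none passed. Of the 41 members, 39 had an absolute log2 fold change under 0.5, with a median SE of 0.07.

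**Figure D3:**
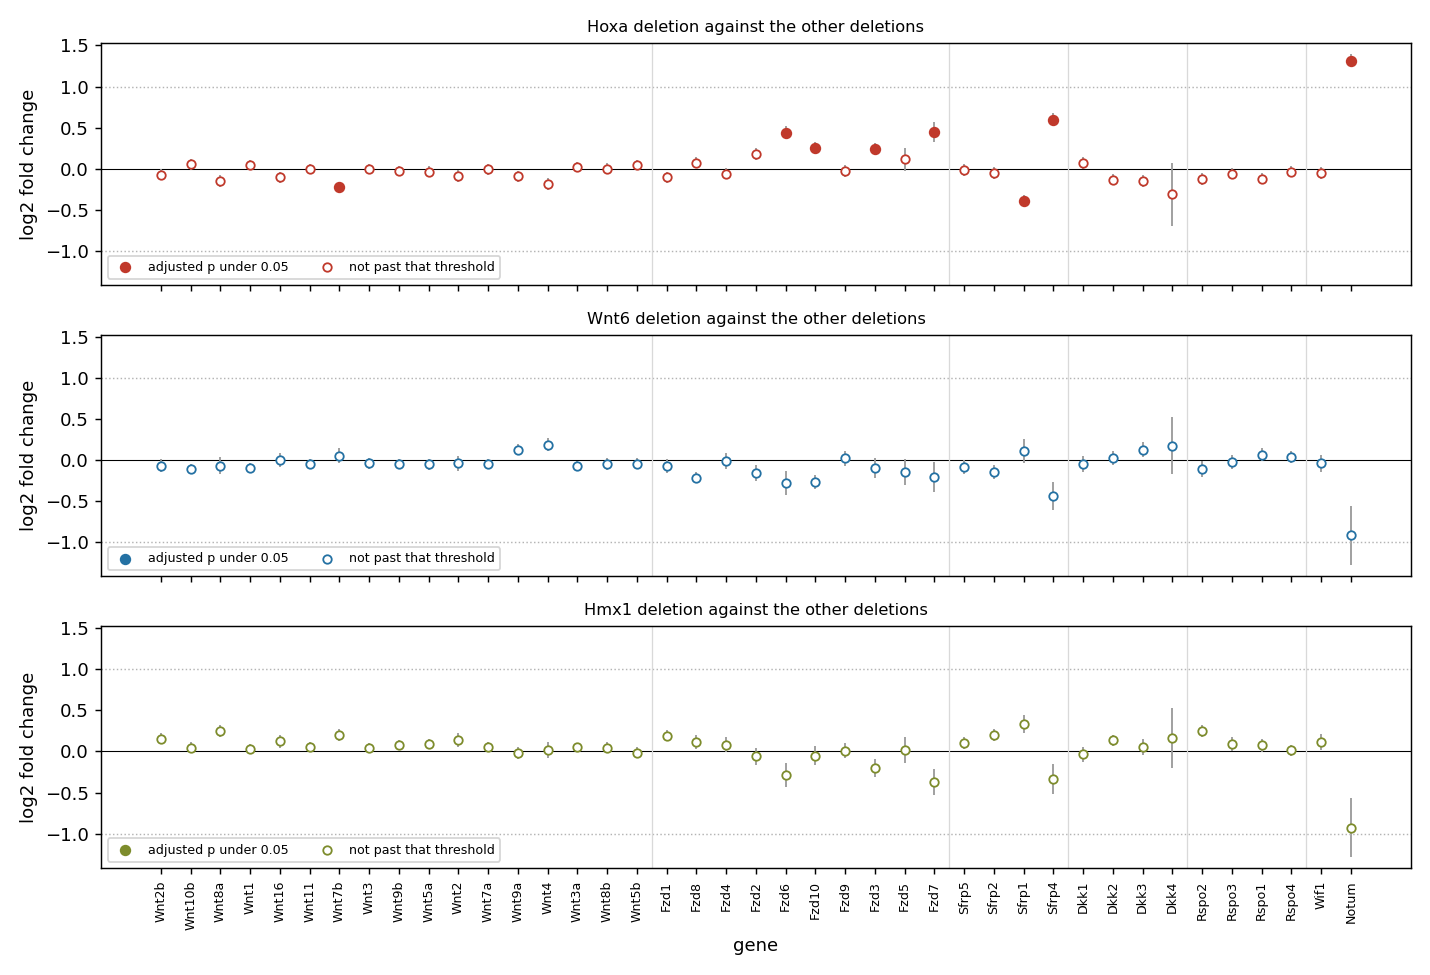
Log2 fold change of H3K27me3 at the 41 genes for each deletion against the others, with bars of 1 SE; filled points passed an adjusted p under 0.05 in edgeR and dotted lines mark the fold needed for a call. Notum alone passes 1 in the Hoxa deletion panel, and no point is filled in the other panels.

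Subfamily sums of a deletion overlapped with those of the other deletions pooled in most cases. Wif1 with Notum was higher in the Hoxa deletion, with a ratio of 1.38 to the others and 216.3 ± 5.86 CPM (SD, n = 3) against 152.4 ± 17.6 (n = 2) in the Wnt6 deletion and 160.4 ± 9.81 (n = 2) in the Hmx1 deletion. Wif1 itself had a log2 fold change of -0.06, so the difference in the sum came from Notum. Sfrp genes had a ratio of 1.11 in the Hmx1 deletion, where the lowest library (716.6 CPM) lay just above the highest of the others (706.2 CPM). Without Sfrp1, on chromosome 8, the ratio was 1.07 and the libraries overlapped (555.8 to 591.0 CPM against 476.5 to 574.7 CPM). Wnt ligands summed to 5430 ± 211.1 CPM (n = 3), 5442 ± 244.5 (n = 2) and 5736 ± 153.1 (n = 2) in the Hoxa, Wnt6 and Hmx1 deletions, and Frizzled genes to 1484 ± 67.7, 1344 ± 120.6 and 1462 ± 32.6. For both sums each deletion overlapped with the others pooled. The Wnt6 and Hmx1 deletion libraries did not overlap with each other, at 5269 and 5615 against 5627 and 5844 CPM for Wnt ligands. For Frizzled genes they had 1258 and 1429 against 1439 and 1485 CPM. Dkk genes and R-spondins did not overlap between the Hoxa and Hmx1 deletions, with higher sums in the Hmx1 deletion. No test was run on the sums. How often all genes separate in this way between single deletions is not given here, and groups of 2 libraries separate easily.

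**Figure D4:**
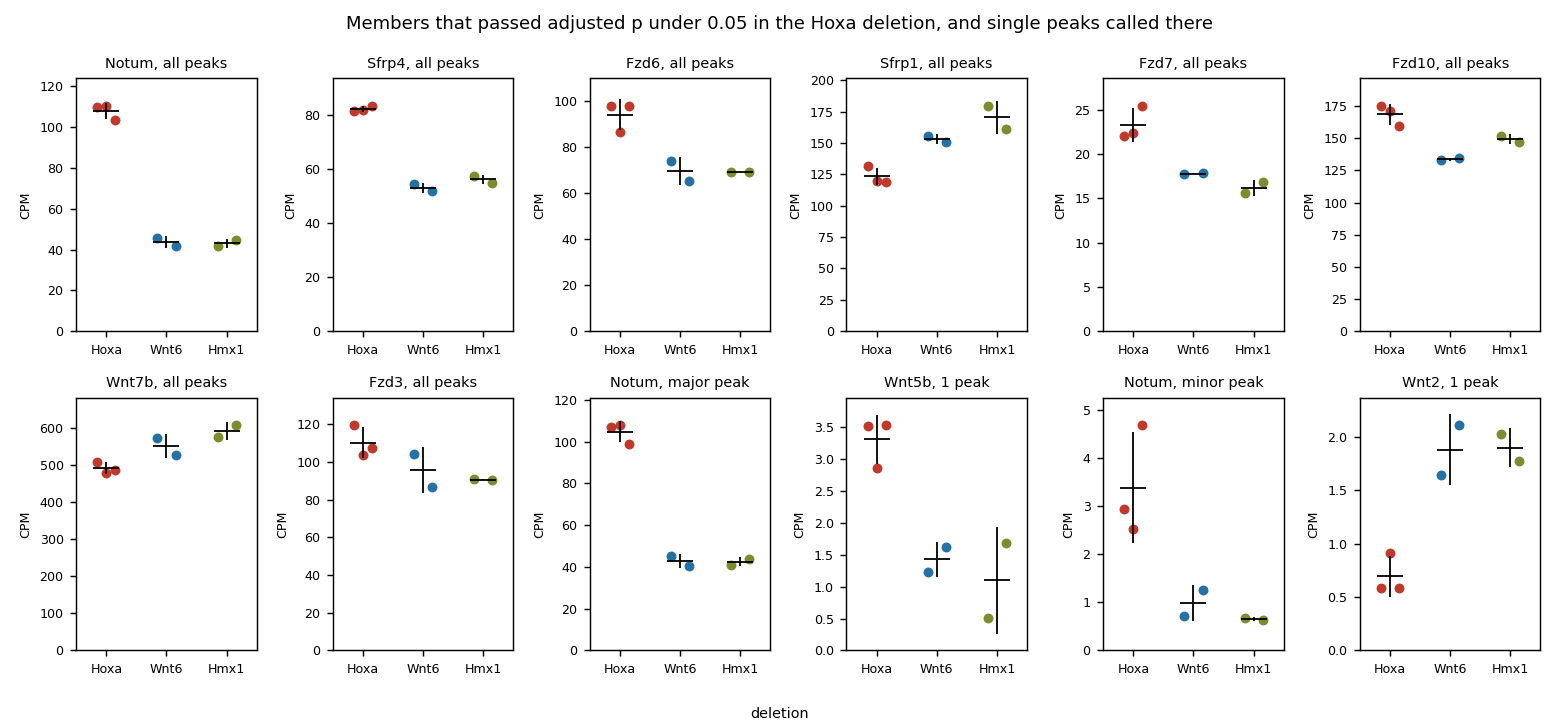
CPM in each library (points, colored by deletion), with the mean and SD per deletion (black), for the 8 members that passed an adjusted p under 0.05 in the Hoxa deletion and for the 4 single peaks called there. The 3 Hoxa deletion libraries stand apart at Notum and Sfrp4, and the 3 weakest of those peaks hold at most 4.70 CPM in any library.

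At the level of single peaks, 4 of 197 member peaks met both criteria in the Hoxa deletion, where 1.55% of all peaks did. The 3 higher peaks compare with 0.566% and the 1 lower peak with 0.983% of all peaks. Without a minimum fold 19 passed, 13 higher and 6 lower, against 8.52% of all peaks (4.32% higher and 4.2% lower). Apart from the Notum peaks, both calls were weak sites outside the promoter windows. A Wnt5b peak inside the gene (chr6:119470150-119470573), 2.69 kb from the window of the second start shown above, had 3.53, 2.87 and 3.54 CPM in the Hoxa deletion libraries and 0.51 to 1.69 CPM in the others. It rose by 1.19 (SE 0.28, edgeR adjusted p = 0.00301), and 2 more Wnt5b peaks, at 119440265 and 119448109, passed without the fold minimum with log2 fold changes of 0.64 each. The strongest Wnt5b peak, over the first start shown above, had 185.1, 164.2 and 168.1 CPM against 170.8 to 184.5 CPM and a log2 fold change of -0.04 (SE 0.07, adjusted p = 0.83).

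Wnt2, a ligand of lung and vessel development, showed the opposite direction at 1 weak site. A peak inside the gene (chr6:18022967-18023226) had 0.59, 0.92 and 0.58 CPM in the Hoxa deletion libraries and 1.65 to 2.12 CPM in the others, without overlap. It fell by 1.37 (SE 0.36, edgeR adjusted p = 0.0105), on 5 to 24 counts against 12 to 81. The call was lost without replicate 3 of the Hoxa deletion (adjusted p = 0.0553), without replicate 2 of the Wnt6 deletion (adjusted p = 0.0513) and against the Hmx1 deletion alone (adjusted p = 0.0546). The peak over the Wnt2 start, which held 90.5% of the CPM of the gene, had a log2 fold change of -0.07 (SE 0.08, adjusted p = 0.667).

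Peaks over listed starts were broad and strong. The 27 of them had a median width of 1976 bp and 68.8 CPM per kb, and only that of Fzd7 passed an adjusted p under 0.05 in the Hoxa deletion. The other 170 member peaks had a median of 26.6 CPM per kb, and 18 of them passed. Log2 fold changes ranged from -0.21 to 0.45 over starts and from -1.37 to 1.91 elsewhere. The second class also holds the main peaks of the 14 members with no listed window, among them 6 of the 8 members that passed in the Hoxa deletion, so it is not a class of sites away from starts. Weak peaks have fewer counts and wider errors, and the part of the level in this contrast was not tested.

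**Figure D5:**
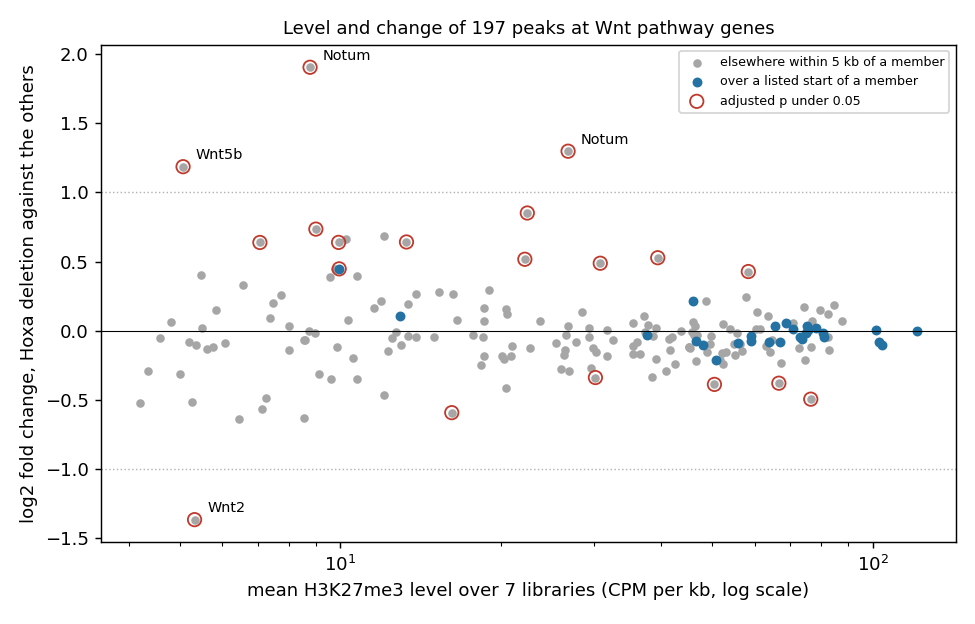
Mean level (horizontal, CPM per kb, log scale) and log2 fold change in the Hoxa deletion (vertical) of the 197 member peaks; blue points lie over a listed gene start, red rings mark an adjusted p under 0.05 in edgeR and dotted lines mark the fold needed for a call. Peaks over listed starts lie between -0.21 and 0.45, and the 4 named peaks beyond the dotted lines have at most 26.8 CPM per kb.

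Members on the chromosome of a deletion were looked at separately, since the study asked about changes along the same chromosome. Wnt16, Wnt2, Wnt7a and Wnt5b lie 29.9, 34.1, 39.1 and 67.2 Mb from the stretch deleted at Hoxa. Their log2 fold changes were -0.11, -0.09, -0.01 and 0.05 over all peaks of a gene, and none passed, although single weak peaks of Wnt5b and Wnt2 were called, as given above. Fzd5 and Fzd7, 10 and 15.3 Mb from the stretch deleted at Wnt6, had -0.15 and -0.21 in that deletion (edgeR adjusted p = 0.918 and 0.913). Fzd1, Fzd10 and Fzd9, 30.6, 93.2 and 99.8 Mb from the stretch deleted at Hmx1, had 0.19, -0.05 and 0.01 in that deletion and none passed in the pooled comparison. With a term per genotype Fzd1 passed without the fold minimum (0.192, edgeR adjusted p = 0.0424). The share of all genes that passed in that model is not given here, so this pass cannot be set against a background.

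In the Wnt6 deletion, no member and no member peak was called, where 0.0368% of genes and 0.0497% of peaks were called over the whole table. Wnt6 is not a member, so the member counts leave out the deleted locus itself. At an unadjusted p under 0.05 edgeR gave 5 members and 10 peaks, against 5.11% of genes and 5.2% of peaks, and DESeq2 called none as well. Among higher members the smallest p were those of Wnt4, needed for kidney and female reproductive tract development, at 0.19 and Wnt9a at 0.13 (edgeR adjusted p = 0.902 for each). Wnt4 had 246.3 and 226.5 CPM in the Wnt6 deletion libraries and 192.3 to 230.5 CPM in the others, and the groups overlapped. Against the Hoxa deletion alone Wnt4 passed without the fold minimum (0.24, edgeR adjusted p = 0.0133). Fzd10 at -0.27 and Fzd8 at -0.21 had the smallest p among lower members (edgeR adjusted p = 0.902 for each). In an edgeR model with a term per genotype, where differences between the other deletions do not count as spread, both passed without the fold minimum, Fzd10 at -0.246 (adjusted p = 0.0246) and Fzd8 at -0.22 (adjusted p = 0.0383). Passes in that model are given for named members only, without the share of all genes, and cannot be set against a background. Fzd10 had 132.8 and 134.6 CPM against 146.8 to 175.5 CPM, without overlap. Libraries of 6 members did not overlap with the others, against 9.65% of all genes. The median member value was -0.05 and that of all genes -0.04, and 40 of 41 members had an absolute value under 0.5, with a median SE of 0.09.

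In the Hmx1 deletion, no member and no member peak was called, where 0.0245% of genes and 0.0282% of peaks were called. At an unadjusted p under 0.05 edgeR gave 9 members and 15 peaks, against 13.9% of genes and 8.96% of peaks, and DESeq2 called none. Members leaned to higher values: 31 of 41 were above 0, with a median of 0.05 against -0.04 over all genes, and 15 of 17 Wnt ligands were above 0. The share of all genes above 0 is not given here, and with library totals alone the member median was 0.023. Wnt8a, a ligand of the early posterior embryo, had 170.2 and 160.8 CPM against 131.2 to 144.9 CPM, a log2 fold change of 0.25 (SE 0.07, edgeR adjusted p = 0.175). Rspo2, an R-spondin of limb and lung development, had 148.3 and 148.7 CPM against 117.1 to 132.6 CPM, also 0.25 (SE 0.07, edgeR adjusted p = 0.176). Groups did not overlap for either gene, and neither passed in the pooled comparison. With a term per genotype both passed without the fold minimum, Wnt8a at 0.241 (edgeR adjusted p = 0.0119) and Rspo2 at 0.253 (edgeR adjusted p = 0.00912), as did Sfrp1 on chromosome 8 at 0.303 (edgeR adjusted p = 0.00122). These passes too are given for named members only, without the share of all genes in that model. Genes on chromosome 8 had a median log2 fold change of 0.276 in the Hmx1 deletion. In the pooled comparison Sfrp1 had 0.33, and -0.015 with the chromosome medians removed. Libraries of 10 members did not overlap with the others, against 20.1% of all genes.

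Notum showed how the pooled comparisons share libraries. Its value was -0.93 (SE 0.36, edgeR adjusted p = 0.273) in the Hmx1 deletion and -0.92 (SE 0.35, adjusted p = 0.902) in the Wnt6 deletion, with the Hoxa deletion libraries among the others. With a term per genotype the value in the Hmx1 deletion was -0.656 (edgeR adjusted p = 3.2e-08), again against a mean that holds the Hoxa deletion. Between the Wnt6 and Hmx1 deletions it differed by 0.00244 on the log2 scale (adjusted p = 0.997). Fzd7, at -0.37 in the Hmx1 deletion (adjusted p = 0.339), differed by -0.12 from the Wnt6 deletion (adjusted p = 0.854). No member and no member peak passed between the Wnt6 and Hmx1 deletions with or without the fold minimum, where 0.0613% of genes and 0.0887% of peaks were called. Against the Hoxa deletion alone, Notum was the only member called in either of them, where 0.497% (Wnt6 deletion) and 0.944% (Hmx1 deletion) of genes were called. Without the fold minimum more members passed. In the Hoxa deletion 7 were higher and 2 lower than in the Wnt6 deletion, and 5 were higher and 5 lower than in the Hmx1 deletion. The share of all genes that passed in these contrasts without the minimum is not given here. Of member peaks, 5 and 3 were called in these contrasts, where 1.23% and 1.8% of all peaks were.

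The other genes of the pathway were taken from a list of 61, of which 58 were tested. In the Hoxa deletion 11 rose, 3 fell and none was called with the fold minimum, beside the 17.2% of all genes that passed. At an unadjusted p under 0.05 edgeR gave 22, against 27.3% of all genes, and the median log2 fold change of the 58 was 0.095. Of 20 other surface and secreted genes 3 rose and 1 fell, of 20 intracellular genes 3 rose and 2 fell, and of 18 nuclear factors and targets 5 rose and none fell. Those that rose included Ror2, a receptor of Wnt5a, by 0.61 (SE 0.07, edgeR adjusted p = 1.6e-09), Axin2, a scaffold of the complex that degrades beta-catenin and a common Wnt target, by 0.50 (SE 0.07, edgeR adjusted p = 2.04e-07), and Tle3, a corepressor of Tcf factors, by 0.61 (SE 0.09, edgeR adjusted p = 1.44e-06). Ror1, Apc2 and Nkd1 fell, and Nkd1, an intracellular antagonist with -0.70, lies on chromosome 8. No gene of the list passed in the Wnt6 or the Hmx1 deletion (10 and 9 at an unadjusted p under 0.05 in edgeR), where 0.0429% and 0.0858% of all genes passed. These genes were named after their values were seen. The highest levels were those of Kremen2, a Dkk receptor (74.2 CPM per kb), and of the Wnt targets Sp5 (73.7 CPM per kb) and Cdx2 (70.1 CPM per kb). Ctnnb1, which encodes beta-catenin, had 6.28 CPM per kb.

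Of 8 pluripotency genes tested in the Hoxa deletion, 3 rose, Klf4, Tfcp2l1 and Fgf4, beside the 11.8% of all genes that passed higher. The other 5 did not pass, and their log2 fold changes were 0.13 for Pou5f1, 0.11 for Nanog, 0.11 for Esrrb, 0.12 for Utf1 and -0.55 for Zfp42, which lies on chromosome 8. The summed level of the 8 genes, of which Esrrb gave the most, was 334.4 to 348.6 CPM in the Hoxa deletion libraries and 284.9 to 303.6 CPM in the others. The summed fibroblast level was 1205 to 1272 CPM in the Hoxa deletion libraries and 1173 to 1323 CPM in the others, and none of 8 passed. The part of these differences in the values of Notum, Sfrp4 and the Frizzled genes was not tested.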

How the data were processed

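H3K27me3 Cut&Tag libraries were analysed from the deposited table of raw counts per peak, in which the authors gave 7 columns over a shared list of 74458 peaks, with no normalization. The submitters' processing notes name Bowtie2, Trimmomatic, SAMtools, Picard, MACS2, deepTools and build mm10. How the peak list was made, the removal of duplicates and whether reads or fragments were counted are not given in the sources used here, and peaks strong in the libraries used to make the list can be favoured. Groups came from the sample titles. Peaks were joined to RefSeq gene bodies (GRCm38.p6, no strand or exons) within 5 kb, and counts were summed per gene. All genes and all peaks were fitted in edgeR 4.0.16 (R 4.3.3; filterByExpr, TMM, glmQLFit, glmQLFTest), each deletion against the other deletions pooled, with Benjamini-Hochberg adjustment over the whole table. The study used DESeq2, which was an alternative here (version 1.42.0). Calls needed an adjusted p under 0.05 and an absolute change over 1 on the log2 scale. CPM values are scaled by TMM factors. Chromosome medians were removed by offsets per library. The procedure was also run on simulated counts with planted changes larger than any member change, so that run does not bear on the small changes reported here. Plots used matplotlib 3.10.9 under Python 3.11.15.

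Members, lists and tests were chosen with earlier results of these data known. Named by rule were members called in any comparison, the 2 with the smallest p in each direction, those on chromosome 8 or on a deleted chromosome, the 5 highest and 5 lowest by level and the highest of each subfamily, and of the other pathway genes those called and the 3 highest. Totals ranged from 6016500 to 36563541 counts. Alternatives were DESeq2, RLE factors, library totals, chromosome medians removed, a minimum mean count of 20, no filter, a term per genotype, each other deletion alone, a replicate block, each library left out, no fold minimum and windows of 0 and 10 kb.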

Additional observations from a re-analysis of the deposited data

How the results depend on the processing

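Of 999 alternative values, 895 kept their direction and their side of the threshold, or stayed within the spread. Values that passed in neither fit are among the 895, so that count says little about the passes. In 18 cases a value passed an adjusted p under 0.05 only in the alternative, and in 13 a pass was lost. Direction turned in 26, and 47 counts, medians or levels moved. Notum kept its call in the Hoxa deletion under every alternative. Without the fold minimum the Hoxa deletion count was 8 genes and 19 peaks. The median of members in the Hoxa deletion was 0.0179 against the Wnt6 deletion alone. Against the Hoxa deletion alone, the Wnt6 deletion had 1 gene and 5 peaks called and the Hmx1 deletion 1 gene and 3 peaks. With genotype terms, 1 peak was called in the Hmx1 deletion, and its median was 0.023 with library totals alone. With each library left out, called members stayed at 1, 0 and 0 and called peaks at 3 to 4, 0 and 0 to 1 in the Hoxa, Wnt6 and Hmx1 deletions, where the 1 peak came without replicate 2 of the Wnt6 deletion. The medians ranged from -0.0622 to -0.00919, from -0.107 to -0.00483 and from 0.0389 to 0.0837. With a window of 0 kb the subfamily sums were 5123 CPM for Wnt ligands, 1328 for Frizzled receptors, 533.3 for Sfrp genes, 324.2 for Dkk genes and 723 for R-spondins.

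Replicate numbers are shared between groups, and deviations of same-numbered libraries correlated between -0.0597 and 0.077 over 6 pairs. In a group of 2 libraries the deviations mirror each other, so these correlations are not independent and cannot decide on pairing. In each deletion replicate 1 had the lowest total (8656908, 9982841 and 6016500 counts) and replicate 2 the highest. The main fits did not pair libraries by number, and whether the numbers mark a batch was not tested. With the replicate block, called members numbered 1, 0 and 0 and called peaks 3, 0 and 0, and the medians were -0.0156, -0.0676 and 0.052. The Wnt2 peak was not called there (-1.24, adjusted p = 0.0697).

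Direction turned in the following cases, mostly for values near 0, but also for Sfrp1, which had passed in the Hoxa deletion, and for Notum in the Hmx1 deletion. Wnt7a in the Hoxa deletion was 0.00381 with library totals, 0.0127 with the replicate block, 0.0299 against the Wnt6 deletion alone, and -0.044 to 0.0132 with a library left out, where it was above 0 without replicate 2 or 3 of the Hoxa deletion or replicate 2 of the Hmx1 deletion. With chromosome medians removed, Sfrp1 was 0.175, -0.20 and -0.015 and Dkk4 0.242, -0.152 and -0.126 in the 3 deletions. In the Wnt6 deletion against the Hmx1 deletion alone, Fzd7 was 0.122, Sfrp1 -0.145 and Dkk4 -0.00247, and Dkk4 ranged from -0.508 (without replicate 2 of the Wnt6 deletion) to 0.428 with a library left out. In the Hmx1 deletion, Fzd9 was -0.0212 with library totals and with a window of 10 kb, -0.00872 against the Wnt6 deletion alone and -0.0484 to 0.0751 with a library left out, below 0 without replicate 2 of the Hoxa deletion, replicate 2 of the Wnt6 deletion or replicate 1 of the Hmx1 deletion. With a library left out, Fzd10 ranged from -0.0998 to 0.00423 (without replicate 1 of the Hoxa deletion) and Dkk4 from -0.293 (without replicate 2 of the Hmx1 deletion) to 0.37. Fzd10 was 0.157 against the Wnt6 deletion alone, and Notum 0.00244 against the Wnt6 deletion alone. The cause was not tested in any of these. Fits that leave a deletion with 1 library assume that it varies like the others. Levels of the weakest called peaks rest on 3 to 81 counts, and counting limits their precision.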
